A study of Homo sapiens with 9 samples.

Results

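The ATP-binding cassette (ABC) genes of A431 cells were taken from the table of gene counts by their symbols, that is, ABC followed by a subfamily letter from A to G and a number. The rule used no measured value. It found 46 genes among the 58051 in the table, and it leaves out the antigen peptide transporters TAP1 and TAP2 and the chloride channel CFTR. ABC proteins bind and hydrolyse ATP in a pair of conserved nucleotide-binding domains, and most use this to move a substrate across a membrane. Several pump drugs and their conjugates out of the cell and are best known in tumours for multidrug resistance, whereas others handle sterols and phospholipids, serve mitochondria and peroxisomes, or, in the E and F subfamilies, have no membrane domain and act in translation. ABCC8 and ABCC9 are exceptions of another kind, since they are the sulfonylurea receptors, regulatory subunits that sense nucleotides in ATP-sensitive potassium (KATP) channels.

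A431 is a line of epidermoid (squamous) carcinoma cells that express a mutant p53 of their own. RNA-Seq of poly(A) RNA compared A431 parental (mutp53) cells, A431 Ctrl (mutp53) cells made with an empty vector, and A431 p53 KO cells made with a CRISPR construct against p53, with 3 libraries per group. The constructs of the Ctrl and p53 KO lines carried GFP, no group received a drug, and according to the labels cells were grown from single colonies and harvested 48 h after settling. Whether the 3 libraries of a group came from separate cultures is not given in the sources used here, so p-values measure the spread between these libraries, which may be technical, and loss of p53 and differences between lines cannot be told apart.

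The 9 libraries held 19783778 to 29840452 counts. Of the 10 epidermoid markers 9 were expressed above the filter on low counts, and 4 of 6 blood cell markers and 5 of 8 fibroblast markers had 0 counts in all 9 libraries. In CPM (counts scaled to a common library size), the endothelial list summed to 0.421 to 1.16 and the fibroblast list to 2.33 to 4.36 over all libraries. The pericyte and smooth muscle list comes from cells in which ABCC9 is known to be expressed. It summed to 76.1 to 78.9 CPM in parental libraries, 162 to 194 in Ctrl and 74.6 to 83.4 in p53 KO. Most of this came from NOTCH3. ACTA2 had 59 to 138 counts per library, and RGS5, present under separate identifiers, had 45 to 98 and 8 to 19. DES was at 0, PDGFRB at 0 to 4 counts, and MYH11, MCAM and CSPG4 at 0 to 6. Ctrl replicate 1 stood apart from the other libraries of its group, with correlations across genes of 0.988 and 0.990, where the lowest of all other pairs within a group was 0.9956.

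Upstream sequences are shown for 3 members that differed between p53 KO and both control groups and have a single annotated start. Each is the 250 bases before the RefSeq start (GRCh38.p14), written 5′ to 3′ on the gene's own strand, and capitals mark the GC box letters GGGCGG on either strand (CCGCCC on the other). ABCC9 (chr12:21941427-21941676, minus strand) is shown as the member that was all but silent in the controls, ABCC2 (chr10:99782390-99782639, plus strand) as the other member that was higher, and ABCC5 (chr3:184017885-184018134, minus strand) as an efflux gene that was lower.
ABCC9: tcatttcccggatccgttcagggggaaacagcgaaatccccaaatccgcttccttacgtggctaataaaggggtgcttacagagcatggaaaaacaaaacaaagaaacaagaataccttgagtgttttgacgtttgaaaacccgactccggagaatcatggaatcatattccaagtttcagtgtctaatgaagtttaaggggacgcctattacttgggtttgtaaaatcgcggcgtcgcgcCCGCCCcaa
ABCC2: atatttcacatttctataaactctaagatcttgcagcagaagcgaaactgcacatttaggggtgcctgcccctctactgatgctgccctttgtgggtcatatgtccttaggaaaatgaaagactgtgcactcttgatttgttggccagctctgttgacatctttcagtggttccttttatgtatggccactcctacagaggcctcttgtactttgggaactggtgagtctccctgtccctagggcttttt
ABCC5: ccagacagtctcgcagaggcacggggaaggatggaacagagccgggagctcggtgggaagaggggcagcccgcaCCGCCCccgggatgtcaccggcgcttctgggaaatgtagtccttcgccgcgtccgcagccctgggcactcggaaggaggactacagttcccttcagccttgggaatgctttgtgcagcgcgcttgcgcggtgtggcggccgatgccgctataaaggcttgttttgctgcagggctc

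The ABCC2 window held 1 CpG, against 15 in ABCC9, 21 in ABCC5 and a median of 11 over 35116 RefSeq windows of this length. The GC box letters occurred once in ABCC9, once in ABCC5 and not in ABCC2, and 42.6% of all windows held them. The TATA letters TATAAA, searched on both strands, occurred in ABCC2 and ABCC5, against 10.7% of all windows, and the core letters TGACNNNGC of the antioxidant response element in none of the 3, against 10.9%. A match is a description of the letters and not a site in use. Which start A431 cells use was not measured, and for ABCC9 the RefSeq start lies inside the GENCODE gene, which ends at position 21942543. A window was found for 35 of the 46 members.

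A431 cells expressed a limited part of the family. At 0 counts in all 9 libraries were 10 members, and 17 had at most 3 counts in every library. The filter on low counts (edgeR's filterByExpr) kept 24 members, 4 of 12 in subfamily A, 5 of 9 in B, 7 of 12 in C, 3 of 4 in D, the single member of E, all 3 of F and 1 of 5 in G. A member could pass this filter through 1 group in which it was high, as ABCC9 did. The silent members included ABCB1, the P-glycoprotein of multidrug resistance, the sulfonylurea receptor ABCC8, and ABCG5 and ABCG8, which form the sterol exporter of liver and gut. For ABCB1, 0 of 224382070 counts over all libraries allows a level of up to 0.0134 CPM, and 0 in the smallest library allows up to 0.152. These limits cover counting error only.
Among the 22 members below the filter, ABCA10, a member of the A6-like group of lipid transporters, had 3, 4 and 2 counts in the parental libraries, 3, 1 and 1 in Ctrl and 14, 8 and 5 in p53 KO. ABCG4, a sterol transporter, had 6, 2 and 4 counts in parental libraries, and at most 1 in any Ctrl or p53 KO library. The cholesterol exporter ABCA1 had 1 to 15 counts, ABCA3, which loads surfactant lipids in lung, had 1 to 11, and ABCC11, a transporter of conjugated anions, had 2 to 7. The other 17 members below the filter had 0 to 3 counts in any library. These genes were left out of the main test. With no filter beyond 1 count, 1 of them, ABCA10, was called, as higher in p53 KO than in Ctrl cells and past 1.5 log2.

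Per kilobase of exon, the members without a membrane domain had the highest levels. ABCF1, which binds ribosomes and initiation factors, was at 66.7 ± 3.90 CPM per kilobase in parental cells (SD, n = 3), 51.6 ± 3.18 in Ctrl and 74.8 ± 4.49 in p53 KO cells. ABCE1, which splits ribosomes after termination, was at 36.1 ± 0.458, 28.9 ± 5.39 and 36.3 ± 0.932. ABCF2, ABCF3, the peroxisomal fatty acid transporter ABCD3 and ABCC1 followed in this order of the mean over libraries, and these 6 were the members at 10 or more on this scale, while 18 members were at 1 or more. The libraries of ABCE1 overlapped those of ABCF2 in Ctrl cells and lay above them in the other groups, and those of ABCF3 overlapped those of ABCD3 in p53 KO cells and lay above them in the other groups. ABCC9 in p53 KO cells, at 0.259 ± 0.0465, ranked 21 of 24, so that its level was low beside the other members tested even where it was highest. ABCE1 and ABCF1 together made up 35.9 to 36.8% of the family's CPM in parental libraries, 29.2 to 31.3% in Ctrl and 40.3 to 41.8% in p53 KO libraries, and the 3 groups did not overlap.

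**Figure D1:**
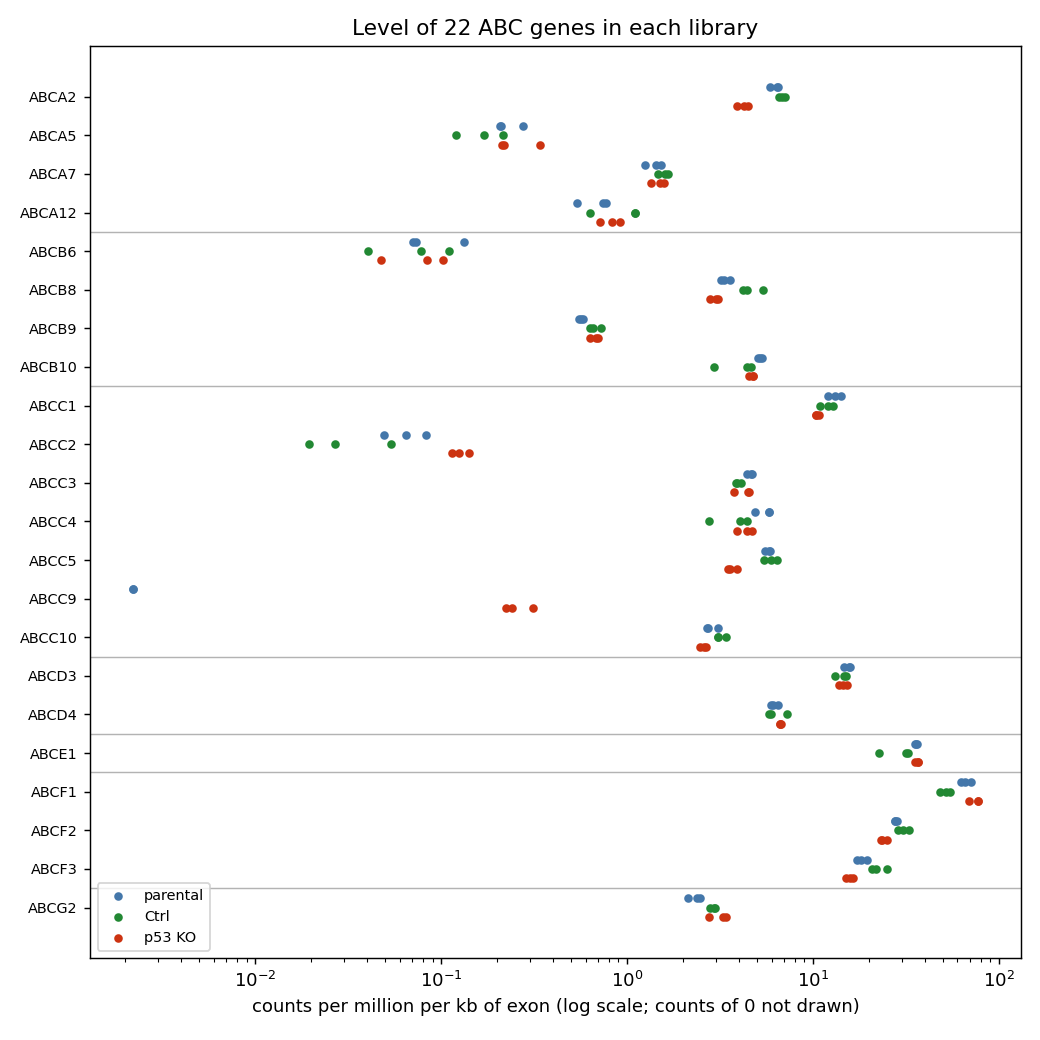
Level of 22 of the 24 ABC genes tested in each library, as CPM per kilobase of exon on a log axis, with the groups in colour. Genes are listed by subfamily. ABCF1 lies farthest to the right in every group. By group mean, ABCE1 is next in parental and p53 KO cells and ABCF2 in Ctrl cells. The p53 KO libraries of ABCC9 (mean 0.259) lie far to the right of its parental ones. A library with 0 counts has no point.

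The design asks which genes differ when mutant p53 is lost, with parental and Ctrl cells as controls. At an adjusted p of at most 0.05 (the quasi-likelihood test of edgeR, Benjamini-Hochberg adjusted over 14513 genes), 6 of the 24 members (25%) differed between p53 KO and parental cells, beside 18.1% of all genes tested. Of these, 3 were higher (9.77% of all genes) and 3 lower (8.36%). Against Ctrl cells 9 members (37.5%) differed, beside 29.2% of all genes, with 3 higher (15% of all genes) and 6 lower (14.2%). In the same direction against both controls 4 members (16.7%) differed, beside 11.7% of all genes. ABCC9 and ABCC2 were higher (6.46% of all genes), and ABCC5 and ABCA2 were lower (5.25%). Both comparisons use the same p53 KO libraries. The Ctrl and parental cells, which both keep mutant p53, differed in 4 members (16.7%), beside 20.3% of all genes. In Ctrl cells ABCB8 and ABCF3 were higher (10.6% of all genes) and ABCF1 and ABCC4 lower (9.69%). These shares were near those of all genes, and nothing particular to the family is read from them.
The median log2 fold change of the 24 members was -0.07 against parental and 0.05 against Ctrl cells, beside 0.01 in both comparisons over all genes tested, and these medians stayed the same with ABCC9 set to its counted ratio or lower bound. With a log2 fold change beyond 1.5 also required, 1 member was called against parental cells (1.95% of all genes), 2 against Ctrl (3.29%) and 1 against both (1.25%), namely ABCC9, with ABCC2 against Ctrl. ABCC9 entered the test through its p53 KO libraries alone, so its calls, here and in the shares above, add nothing to its counts. Apart from ABCC9, only ABCC2 against Ctrl passed this rule. Between Ctrl and parental cells 0 members passed this rule in edgeR (1.94% of all genes), as in DESeq2, and 11 members had an unadjusted p under 0.05 at any size, 0 of them beyond 1.5. Over libraries, the 3 p53 KO values lay outside the range of all 6 control values for 9 members (37.5%), beside 22% of all genes, with 2 members above it (11.9% of all genes) and 7 below it (10.1%).

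**Figure D2:**
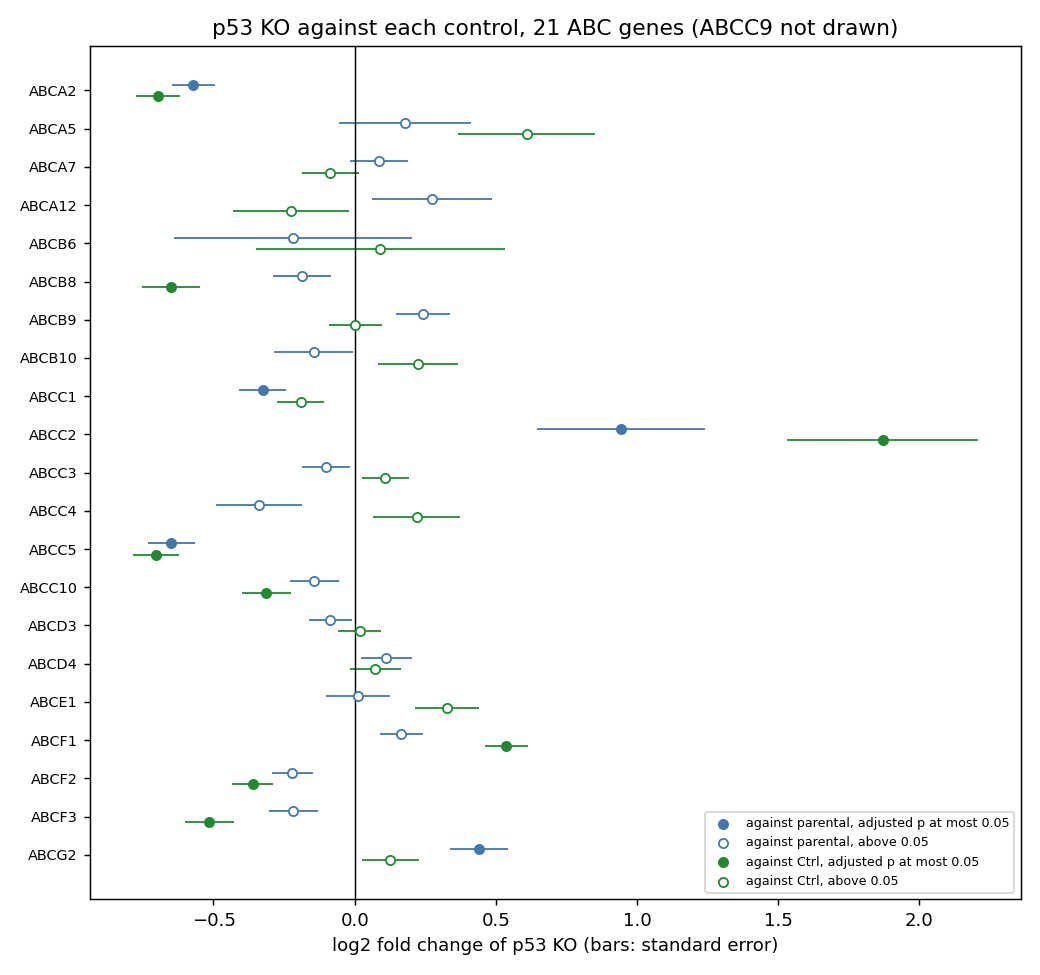
Log2 fold change of p53 KO cells against parental (blue) and Ctrl cells (green) for 21 ABC genes, with bars of 1 standard error. Filled points have an adjusted p of at most 0.05. ABCC5 and ABCA2 lie to the left of 0 in both comparisons and ABCC2 to the right in both. ABCC9 is not drawn because its fitted fold change rests on controls at or near 0.

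ABCC9, the SUR2 subunit of KATP channels of heart, smooth muscle and pericytes, was present in p53 KO cells and almost absent from the controls. Its counts were 117, 111 and 110 in the p53 KO libraries, 1, 1 and 0 in the parental libraries and 0 in all 3 Ctrl libraries. All p53 KO libraries therefore stood apart from all controls. Their raw counts were close to each other, but p53 KO replicate 3 was the shallowest of the group, so its normalized level was the highest. Normalized, the p53 KO counts were 3.93, 4.22 and 5.46 CPM, with a mean of 4.54 ± 0.813 (SD, n = 3). Against the 2 counts of the parental group the ratio was 164, with an exact 95% counting interval of 44.9 to 1356. Against Ctrl cells ABCC9 was at least 36.5-fold higher, taking 3 counts per library as the floor. ABCC9 entered the test through its p53 KO libraries alone, so the adjusted p from edgeR (1.02e-05 against parental and 3.05e-06 against Ctrl) adds nothing to these counts. In bulk RNA, few cells with much ABCC9 and many cells with little cannot be told apart. The summed level of the blood cell list moved with ABCC9, at 0.989 to 1.64 CPM in p53 KO and 0.231 to 0.386 in the control libraries. This came mostly from LYZ, the lysozyme gene and the 1 of 6 markers above the filter, with 40, 17 and 17 counts in p53 KO libraries and 1 to 10 in controls, while PTPRC, CD3E and HBB were at 0 in all 9 libraries.
The gene lies at chr12:21797389-21942543 on the minus strand (GRCh38, identifier ENSG00000069431). Its neighbour KCNJ8 encodes the Kir6.1 pore with which SUR2 assembles in vascular KATP channels, starts 32.4 kb below ABCC9 in coordinate and had 0 counts in all 9 libraries. KCNJ11, the Kir6.2 pore, had 28 to 44 counts in parental, 32 to 45 in Ctrl and 27 to 41 in p53 KO libraries. It differed by -0.16 on the log2 scale (SE 0.26) against parental and -0.27 (SE 0.25) against Ctrl cells (adjusted p = 0.707 and 0.479). Thus of the KATP pore genes, one was undetected and the other did not pass the test.
Of the other genes that start within 1 Mb of ABCC9, 8 were tested. Against parental cells LDHB, a lactate dehydrogenase subunit (log2 fold change 0.31, SE 0.07, adjusted p = 0.0121), and CMAS, which activates sialic acid (0.24, SE 0.07, adjusted p = 0.0381), were higher in p53 KO cells. Against Ctrl cells the organic anion transporter gene SLCO1B3 (0.35, SE 0.12, adjusted p = 0.0404) and C2CD5 (0.37, SE 0.12, adjusted p = 0.0357) were higher. None of the 8 passed the test against both controls, and each differed by less than 0.4 on the log2 scale in either comparison.

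**Figure D3:**
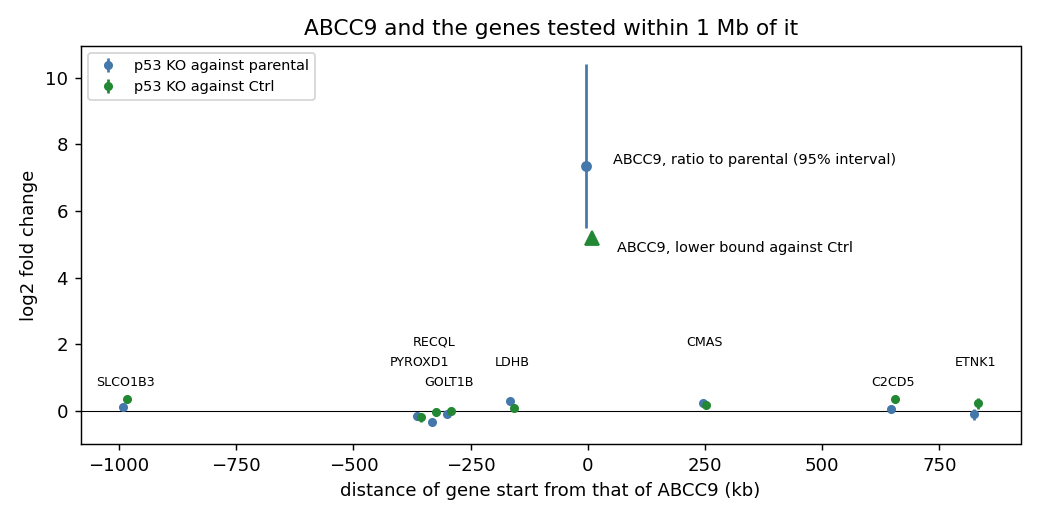
Log2 fold change of p53 KO cells for ABCC9 and the 8 other genes tested within 1 Mb, against the distance of each gene's lowest coordinate from that of ABCC9 in kilobases. Bars of the 8 genes are 1 standard error. The ABCC9 ratio to parental cells has its 95% counting interval, and the triangle is the lower bound of 36.5-fold against Ctrl cells. The 8 neighbours lie close to 0.

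Among the 11 drug efflux genes, 7 passed the filter, 3 were at 0 in all libraries (ABCB1, ABCC6 and ABCC12) and ABCC11 was below the filter. Against parental cells 2 were higher in p53 KO (ABCC2 and ABCG2) and 2 lower (ABCC5 and ABCC1), with 18.1% of all genes called. Against Ctrl cells 1 was higher (ABCC2) and 2 lower (ABCC5 and ABCC10), with 29.2% of all genes called. The CPM of the list summed to 299 to 320 in the parental libraries, 263 to 306 in Ctrl and 240 to 262 in p53 KO, so the p53 KO libraries were below all controls, with a narrow gap to the lowest Ctrl library. This sum is not scaled by length. Its largest parts were ABCC1, with means of 115, 105 and 91.6 CPM in parental, Ctrl and p53 KO cells, and ABCC5, with 65.3, 67.8 and 41.6. The means of ABCC2 and ABCG2 were highest in p53 KO cells. Of all single genes tested, 10.1% lay below all 6 controls, a share that is no background for a sum over a list.

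ABCC5, the MRP5 exporter of cyclic nucleotides and nucleotide analogues, fell in p53 KO cells. It was at 66.1, 67.2 and 62.7 CPM in parental libraries, 62.4, 67.9 and 73.1 in Ctrl and 39.6, 44.7 and 40.7 in p53 KO libraries. The p53 KO values lay below all controls, while parental and Ctrl values overlapped. The log2 fold change was -0.65 (SE 0.08) against parental and -0.70 (SE 0.08) against Ctrl cells (edgeR, adjusted p = 0.000403 and 0.000105), and 0.05 (SE 0.08, adjusted p = 0.643) between the controls.
ABCC1, the MRP1 exporter of glutathione conjugates and of drugs that include etoposide, had the highest length-scaled level of the efflux genes in every group, at 13.1 ± 1.09 CPM per kilobase in parental cells, 12.0 ± 0.945 in Ctrl and 10.5 ± 0.228 in p53 KO (SD, n = 3). In CPM it was at 125, 106 and 115 in parental libraries, 95.9, 106 and 112 in Ctrl and 90.3, 93.9 and 90.6 in p53 KO libraries. All p53 KO values were below all controls. The log2 fold change was -0.33 (SE 0.08, adjusted p = 0.0207) against parental and -0.19 (SE 0.08, adjusted p = 0.111) against Ctrl cells. Only the first passed the test, and it was lost without parental replicate 1 or 3 or any one of the p53 KO libraries, with adjusted p-values from 0.00157 to 0.0968 over the libraries left out. Without Ctrl replicate 1, the comparison with Ctrl cells passed as well (adjusted p = 0.0150).
ABCG2, the breast cancer resistance protein, was at 11.9, 13.9 and 13.3 CPM in parental libraries, 16.5, 15.6 and 16.6 in Ctrl and 18.4, 19.1 and 15.5 in p53 KO libraries. Parental libraries lay below the other 6, and Ctrl and p53 KO libraries overlapped. It was higher in p53 KO than in parental cells (log2 fold change 0.44, SE 0.10, adjusted p = 0.0122), and did not pass against Ctrl cells (0.13, SE 0.10, adjusted p = 0.386). The Ctrl cells differed from parental cells by 0.32 (SE 0.10, adjusted p = 0.0513). The call against parental cells was lost without parental replicate 1 or without p53 KO replicate 1 or 2 (adjusted p up to 0.0674).

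ABCC2, the MRP2 exporter of conjugated organic anions at the bile canaliculus, had the lowest mean level per kilobase over the 9 libraries among the members tested. Its counts were 17, 10 and 11 in parental libraries, 3, 6 and 11 in Ctrl and 29, 29 and 18 in p53 KO libraries. In CPM these were 0.650, 0.385 and 0.508, then 0.153, 0.211 and 0.419, then 0.973, 1.10 and 0.893, so all p53 KO libraries lay above all controls. The log2 fold change was 1.87 against Ctrl cells (SE 0.34, adjusted p = 0.00172), where it passed under all 14 alternatives that tested it, and 0.94 against parental cells (SE 0.30, adjusted p = 0.0498). That second call stood at the threshold and held under 4 of 14 alternatives. It was lost without any 1 of the parental or p53 KO libraries and without Ctrl replicate 2, and adjusted p-values ran from 0.0178 to 0.185 over all alternatives.
The remaining efflux genes differed less. ABCC4, the MRP4 exporter of cyclic nucleotides, did not pass in p53 KO cells, with log2 fold changes of -0.34 (SE 0.15) and 0.22 (SE 0.15), and was lower in Ctrl than in parental cells by -0.56 (SE 0.15, adjusted p = 0.0283). Ctrl replicate 1 had the lowest ABCC4 value, 23.8 CPM, where the other Ctrl libraries had 34.9 and 38.1, and the call was lost without parental replicate 1 or 3 (adjusted p up to 0.101). ABCC10, an exporter of taxanes, was lower in p53 KO than in Ctrl cells (log2 fold change -0.31, SE 0.09, adjusted p = 0.0186), a call lost without p53 KO replicate 1 or 2, and at -0.14 (SE 0.09, adjusted p = 0.286) against parental cells. ABCC3, an exporter of bile acids and glucuronides, was at -0.10 (SE 0.08) and 0.11 (SE 0.08) and passed in neither comparison. The topoisomerase genes TOP2A and TOP2B, whose products are the targets of etoposide, a drug the study used in other assays, passed in neither comparison, with adjusted p-values from 0.0754 to 0.653. Against parental and Ctrl cells, TOP2B was at -0.35 (SE 0.12) and -0.25 (SE 0.12), and TOP2A at -0.10 (SE 0.14) and 0.30 (SE 0.14).

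**Figure D4:**
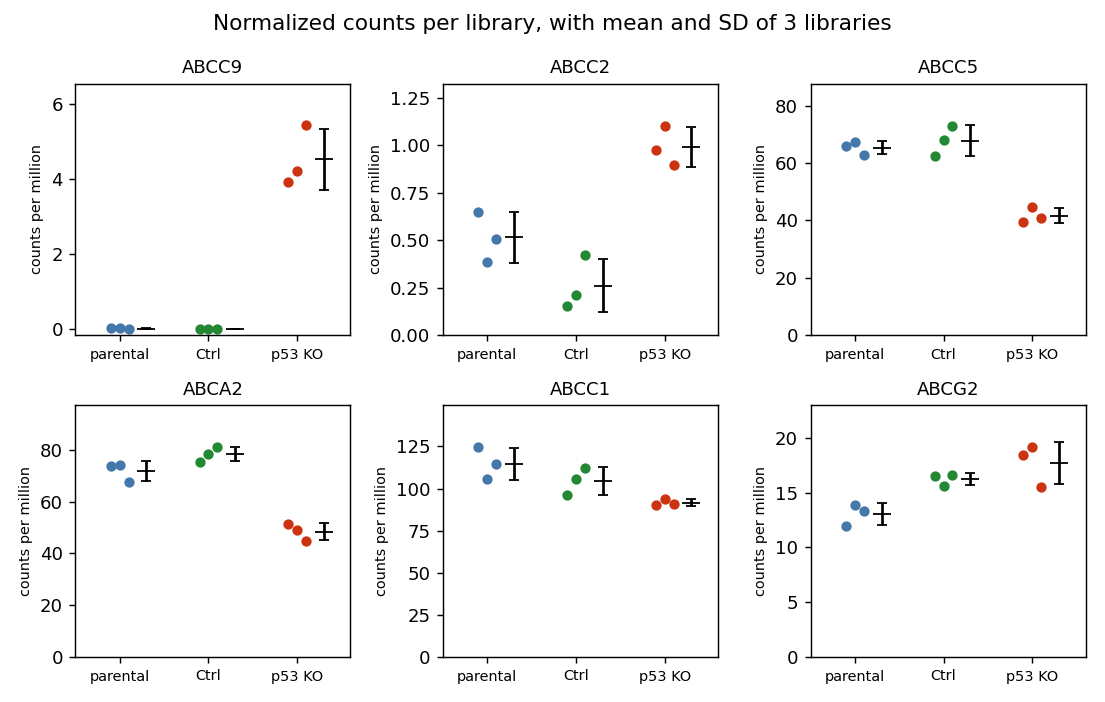
CPM of 6 ABC genes in each of the 9 libraries, with the mean and SD of 3 libraries beside each group; each vertical axis has its own scale. ABCC9 is at or near 0 in the 6 controls and at 3.93 to 5.46 in p53 KO cells, ABCC2 is highest and ABCC5, ABCA2 and ABCC1 are lowest in p53 KO cells, and the p53 KO and Ctrl values of ABCG2 overlap.

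Of the 11 members for sterols, phospholipids and bile lipids 3 were tested, ABCA2, ABCA7 and ABCA12, and ABCA2 passed. ABCA2, an endolysosomal transporter that affects sphingolipid and cholesterol handling, was at 73.9, 74.3 and 67.5 CPM in parental libraries, 75.5, 78.6 and 81.0 in Ctrl and 51.2, 49.1 and 44.8 in p53 KO libraries. All p53 KO libraries lay below all controls. It fell by 0.57 (SE 0.08) and 0.70 (SE 0.08) on the log2 scale (adjusted p = 0.000567 against parental and 7.23e-05 against Ctrl). ABCA7, a phospholipid transporter, stayed within 0.09 of 0 in both comparisons, and ABCA12, which loads lipids into the lamellar granules of keratinocytes, was at 0.27 (SE 0.21) and -0.23 (SE 0.21). ABCA5, of the A6-like group, was at 0.18 (SE 0.23) and 0.61 (SE 0.24, adjusted p = 0.0848). The sum of the sterol and lipid list, 64.8 to 75.2 CPM in p53 KO, 87.8 to 95.3 in parental and 98.1 to 107 in Ctrl libraries, was mostly ABCA2.

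Of the 4 mitochondrial members and the 4 of translation, 0 were called between p53 KO and parental cells, with 18.1% of all genes called. Between p53 KO and Ctrl cells ABCB8, ABCF1, ABCF2 and ABCF3 were called (29.2% of all genes), and between Ctrl and parental cells ABCB8, ABCF1 and ABCF3 (20.3%). ABCB8, a transporter of the mitochondrial inner membrane, was at 31.2, 33.6 and 29.8 CPM in parental libraries, 50.1, 41.4 and 39.2 in Ctrl and 26.3, 28.2 and 28.7 in p53 KO libraries. The groups did not overlap. It was lower in p53 KO than in Ctrl cells (log2 fold change -0.65, SE 0.10, adjusted p = 0.000660) and higher in Ctrl than in parental cells (0.46, SE 0.10, adjusted p = 0.00990), and against parental cells p53 KO stood at -0.19 (SE 0.10, adjusted p = 0.239). Without parental replicate 3 the difference between the controls missed the threshold (adjusted p = 0.0515). ABCB6 and ABCB10, transporters of porphyrin and haem pathways, passed in no comparison. Of the ABCB6 exon length, 54.6% is shared with another gene on the same strand, so its counts are uncertain.
ABCF1 was higher in p53 KO than in Ctrl cells by 0.54 (SE 0.08, adjusted p = 0.000352), and lower in Ctrl than in parental cells by -0.37 (SE 0.08, adjusted p = 0.00732). ABCF2 and ABCF3, cytosolic ATPases of the same subfamily, were lower in p53 KO than in Ctrl cells, at -0.36 (SE 0.07, adjusted p = 0.00320) and -0.51 (SE 0.09, adjusted p = 0.00112). Against parental cells these 3 genes were at 0.17, -0.22 and -0.22, and none passed (adjusted p from 0.0570 to 0.160). Without Ctrl replicate 1, ABCF2 and ABCF3 passed against parental cells too (adjusted p = 0.00778 and 0.0153), as did ABCC4 (adjusted p = 0.00770). ABCF3 was also higher in Ctrl than in parental cells (0.30, SE 0.09, adjusted p = 0.0357), a call that held under 7 of 15 alternatives and was lost without any 1 of the parental libraries, without p53 KO replicate 1 or 2 and without Ctrl replicate 2 (adjusted p up to 0.132). ABCE1 was at 0.01 (SE 0.11) against parental and 0.33 (SE 0.11, adjusted p = 0.0512) against Ctrl cells. ABCF2 shares 37.1% of its exon length with a read-through gene on its strand. Of the peroxisomal and lysosomal members, ABCD3, ABCD4 and ABCB9 passed in no comparison, and their log2 fold changes in p53 KO cells ran from -0.09 to 0.24. Genes on the opposite strand cover 24.6% of the ABCB9 exon length. The strand setting of the counting is not given, so ABCB9 counts are uncertain.

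The genes around some members had fold changes mostly of the same sign, counted here by sign alone and not by a test. Over all genes tested, 50.8% had a log2 fold change above 0 and 49.2% below 0 in either comparison. Within 2 Mb of ABCC2, all 34 other genes tested were above 0 against parental cells and 31 were above 0 against Ctrl cells, with median log2 fold changes of 0.48 and 0.55. Around ABCC5, 30 and 31 of 35 genes were below 0, with medians of -0.37 and -0.51. ABCF3 lies in the same stretch of chromosome 3 and shares most of these neighbours, with medians of -0.37 and -0.50. ABCB8 and ABCF2 share a stretch of chromosome 7, where medians were -0.25 against parental for both and -0.55 and -0.57 against Ctrl cells. The ABCA2 neighbourhood on chromosome 9 did not move with the gene, with medians of 0.12 and -0.04 over 66 genes, and neither did that of ABCC9, with -0.02 and 0.14 over 9 genes. Around ABCG2 the medians were -0.08 and 0.01, and around ABCC1 -0.12 and -0.08. The part of the neighbourhood in each result was not tested.

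**Figure D5:**
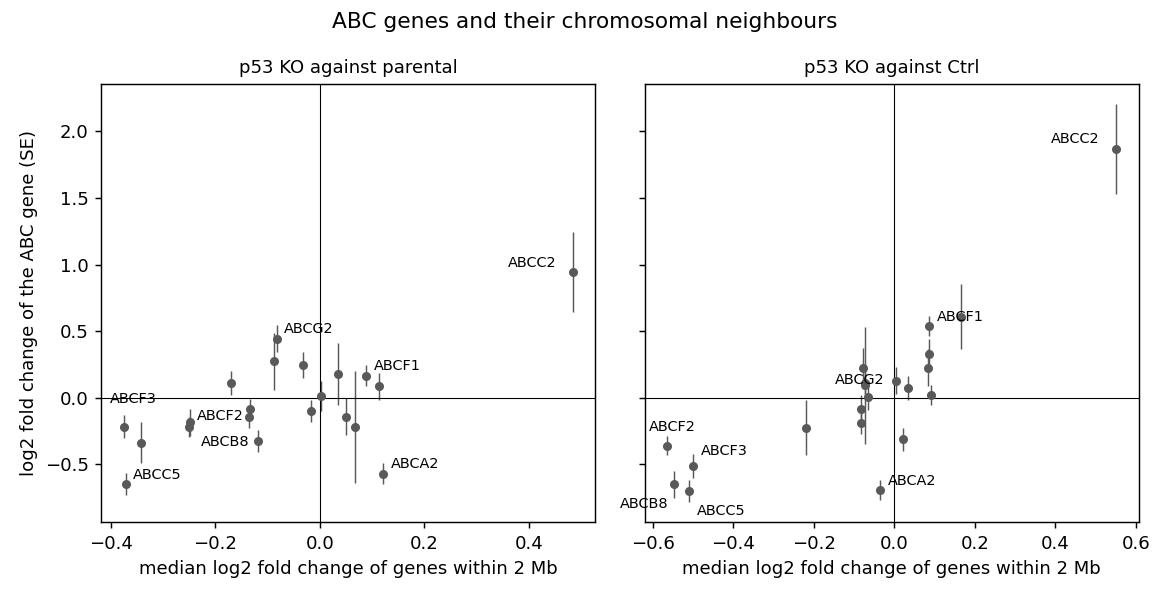
Log2 fold change of each ABC gene with its standard error (vertical axis) against the median log2 fold change of the other genes tested within 2 Mb (horizontal axis), for p53 KO against parental (left) and Ctrl cells (right), for the same 21 genes. ABCC2 stands at the upper right and ABCC5, ABCF3, ABCB8 and ABCF2 at the lower left, and ABCA2 is low beside neighbours near 0.

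Outside the symbol rule, TAP1, which loads peptides for HLA class I, was higher in p53 KO cells by 0.60 (SE 0.09, adjusted p = 0.00130) against parental and 0.64 (SE 0.09, adjusted p = 0.000405) against Ctrl cells. Its partner TAP2 was at -0.05 and 0.02 (SE 0.09 for both), and CFTR had 0 counts in all libraries. In the lists that follow, the shares of all genes to set beside the counts are 9.77% higher and 8.36% lower against parental, and 15% higher and 14.2% lower against Ctrl cells. Of the 16 nuclear receptors and sensors that control ABC genes, 12 were tested, 2 were higher and 2 lower than in parental cells, and 0 higher and 3 lower than in Ctrl cells. Against both controls SREBF2, the sterol regulator, was lower, by -0.37 (SE 0.06, adjusted p = 0.00226) and -0.62 (SE 0.06, adjusted p = 4.39e-05). Within 2 Mb of SREBF2, 44 of the 55 other genes tested were below 0 against parental and 47 against Ctrl cells. Their medians were -0.11 and -0.31, and their part was not tested. Of 12 LXR target genes 9 were tested, 3 were higher and 1 lower than in parental cells, and 1 was higher and 1 lower than in Ctrl cells. The desaturase SCD was higher against both (0.46 and 0.48, SE 0.09 for both), and the 40 other genes tested within 2 Mb of it, in the stretch of chromosome 10 that holds ABCC2, had medians of 0.46 and 0.49, whose part was not tested. MYLIP, which marks the LDL receptor for degradation, was lower against both (-0.33, SE 0.11, adjusted p = 0.0498, and -0.68, SE 0.10). Of 24 uptake and other drug transporters 13 were tested, 2 were higher and 1 lower than in parental cells, and 3 were higher and 1 lower than in Ctrl cells. MVP, the major vault protein, was higher against both (0.66 and 0.47, SE 0.13 for both, adjusted p = 0.00419 and 0.0163).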

How the data were processed

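The authors aligned paired-end reads of strand-specific poly(A) libraries with STAR 2.5.1b to GRCh38, obtained read counts of Ensembl genes with featureCounts, and deposited the counts without normalization. The strand setting of the counting is not given in the sources used here.

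Counts of 9 libraries were mapped by column name and compared with edgeR 4.0.16 under R 4.3.3. The filter filterByExpr (minimum count 10) left 14513 genes, which were normalized by TMM, fitted with 1 mean per group, and compared by the quasi-likelihood test with Benjamini-Hochberg adjustment. Standard errors follow from the F statistic. The fit was tested on simulated data. CPM use TMM library sizes. Exon lengths, exon overlaps and positions come from GENCODE (GRCh38) and upstream sequences from RefSeq. This GENCODE release is later than the gene models used for counting, so levels per kilobase and shares of exon overlap are approximate. Library totals were 19783778 to 29840452 counts.

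Named members were those called alike against both controls or past 1.5 log2, with ABCC8 and ABCC9 and the drug efflux genes; other members called in a comparison are named beside their counts. From lists of related genes, those called against both controls are named. Members and lists were chosen with earlier results of these data known, and the 2 Mb window after the values were seen. Alternatives were DESeq2 1.42.0, its size factors, other filters, only the groups compared, a replicate block, glmTreat and each library left out. Some genes are not reported here. Figures were drawn with matplotlib 3.10.9.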

Additional observations from a re-analysis of the deposited data

How the results depend on the processing

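Over DESeq2, other scaling, filters and fits and each library left out, ABCA2 and ABCC5 passed the test against both controls in all 15 alternatives. ABCC9, kept in the alternatives that tested it through its p53 KO libraries alone, is left out of that statement. Where it appears among members called below, its call adds nothing to its counts. No named member tested changed sign. DESeq2 called 6 members against parental cells, 10 against Ctrl and 5 between the controls. With DESeq2 and with its size factors in edgeR, ABCC2 was lost (adjusted p = 0.0855 and 0.0517) and ABCF2 gained (0.0232 and 0.0491) against parental cells, so the 4 members called against both controls were ABCA2, ABCC5, ABCC9 and ABCF2. Called between Ctrl and parental cells were 7 members with no filter, which also called ABCA10 against Ctrl, and 2 with only the groups compared. Requiring 10 counts in every library removed ABCC2 and ABCC9, which left 2 members called against both controls, 0 past 1.5 log2 against parental, Ctrl or both, and a median of 0.0385 for Ctrl against parental. A test against 1.5 log2 (glmTreat) kept 1 member against Ctrl, which was ABCC9, a gene tested through its p53 KO libraries alone.

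Without single libraries, members called ranged from 3 to 9 against parental, 8 to 13 against Ctrl, 3 to 7 against both and 1 to 7 between the controls, where 4 was the value with all libraries. The 3 against parental came without parental replicate 1 and without p53 KO replicate 1 or 2, and the 9 against parental and 7 against both without Ctrl replicate 1, where ABCC1, ABCF2 and ABCF3 were added to those called against both. Between the controls, 1 came without parental replicate 3, 2 without parental replicate 1, and 7 without Ctrl replicate 3. Medians ranged from -0.1063 to -0.0115 against parental, 0.0227 to 0.0639 against Ctrl and -0.0998 to -0.0122 between the controls.

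Same-numbered libraries did not deviate together (9 pairs, correlations of -0.50 to 0.07, and 0 of 9 libraries closest to their own number), so replicate numbers do not pair them. With the number as a block, 4 members were called against parental, 9 against Ctrl, 3 against both and 2 between the controls.

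Fewer than 30 counts per library limit ABCC2, and 3 libraries of 1 line per group limit all comparisons.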
